A study of Mus musculus with 12 samples.

Results

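Aminoacyl-tRNA synthetases join each amino acid to its transfer RNA, and the 38 genes described here encode these enzymes. They were chosen by gene name alone, as every symbol made of 1 letter followed by ars, ars2 or arsl2, together with Eprs, Farsa and Farsb, from 24421 genes in the table. The rule uses no measured value. 20 of the genes encode the enzymes of the cytosol. 17 genes with a name ending in 2 encode mitochondrial enzymes, which serve the few proteins translated inside the organelle. Tarsl2, a cytosolic threonyl enzyme whose name also ends in 2, was kept apart from both classes. Gars and Kars each make the cytosolic and the mitochondrial form of their enzyme from 1 gene and were counted as cytosolic.

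Every cell that makes protein needs the whole set of enzymes, because a missing charged transfer RNA stalls the ribosome. Uncharged transfer RNA is sensed by the kinase GCN2, which phosphorylates the initiation factor eIF2α and so raises translation of the transcription factor ATF4. ATF4 binds amino acid response elements, and several cytosolic synthetase genes are known ATF4 targets. Thymocytes pass through a phase of fast growth and division at β-selection and become small and resting as double-positive cells.

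RNA was measured in thymocytes of C57BL/6 mouse embryos. All groups lacked Rag1, so that their thymocytes cannot rearrange an antigen receptor, and all carried Bcl6 fl/fl, loxP-flanked alleles of the repressor gene Bcl6. Control embryos were LckCre- (Rag1KO, Bcl6 fl/fl) and KO embryos were LckCre+ (Rag1KO, Bcl6 fl/fl, with the Cre recombinase driven by the promoter of the T lineage gene Lck). Loss of Bcl6 and presence of Cre cannot be told apart in this design. CD25 cells were sorted for CD25 from unstimulated thymi. ISP cells (immature single-positive, CD4- CD8+) and DP cells (double-positive, CD4+ CD8+) were sorted from thymi held for 2 days on filters in the presence of anti-CD3 antibody (1 µg/ml), which stands in for the receptor signal of β-selection. Each of the 6 groups had 2 libraries, and whether these came from separate embryos is not stated. The p-values therefore measure the spread between these libraries. It may be technical, except that the libraries of ISP control and of DP control differed in their mix of sexes (below). The age of the embryos is given as E16.5 by the sample characteristics, whereas the protocol of the anti-CD3 culture names E17.5.

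Reads per library ran from 9657633 to 14227980, and a synthetase gene had between 54 and 7963 reads in a library. Levels are in RPKM, reads per kilobase of gene scaled to library depth. Their sum over all genes ran from 423013 in DP control library 1 to 504677 in ISP control library 2. Comparisons between libraries therefore depend in part on the scaling. Changes are differences of log2(RPKM + 1) with their standard error (SE), which understate the change of low genes. A gene was called where the Benjamini-Hochberg adjusted p of limma's moderated test over all genes tested was under 0.05. In 6 of the 8 anti-CD3 libraries the title and the sequencing library name disagree on population or genotype, and groups here follow the titles. Grouped by library name, the median residual variance of a gene was 0.0215 in place of 0.00989, and 0 members were called between ISP and DP. Cd4 ran from 1.03 to 1.78 RPKM in CD25, from 13.9 to 20.5 in ISP and from 191 to 344 in DP libraries grouped by title. Bcl6, counted over the whole gene, stood at 72.5 and 70.0 RPKM in DP control and 87.7 and 111 in DP KO, which does not check the deletion of the loxP-flanked part. The Y-linked gene Ddx3y did not exceed 0.0979 RPKM in stimulated KO libraries but reached 7.28 to 56.3 in stimulated controls, so sex was not balanced between the genotypes there, and its part in the results was not tested. Ddx3y also differed within groups, at 7.28 and 29.7 RPKM in ISP control and 15.7 and 56.3 in DP control. Xist, a gene expressed in female cells, was at 20.5 and 0.766 in ISP control and 22.5 and 0.914 in DP control. The libraries of these control groups thus differed in their mix of sexes. Summed markers of NK and innate lymphoid cells ran from 593 to 782 RPKM in CD25, from 1044 to 1266 in ISP and from 113 to 217 in DP, over 8 genes of which none was under 0.1 RPKM in every library. The sum of 6 mast cell markers, none under 0.1 RPKM in every library, was 35.0 to 39.9 RPKM in CD25 libraries and only 0.853 to 3.17 in DP libraries. In ISP cells it was 13.1 and 17.3 in controls but 29.0 and 35.1 in KO. The sum of 6 thymic epithelium markers was 112 to 125 RPKM in CD25 against 19.8 to 27.6 in all anti-CD3 libraries, although the defining genes Foxn1 and Psmb11 were under 0.1 RPKM in each of the 12. Of 4 B lineage markers, Pax5 and Ebf1 were under that level throughout and the sum did not exceed 0.387. These sums move with the populations compared, and their part in the results was not tested.

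The cytosolic enzymes include the glycyl enzyme Gars, the tyrosyl enzyme Yars, the alanyl enzyme Aars, the isoleucyl enzyme Iars and the threonyl enzyme Tars. These are the members whose promoter window held the letters of an amino acid response element, TGATGNAAN, on either strand. A window covered 250 bases before to 50 after the gene start in RefSeq on GRCm38.p6, and 28 of the 38 members had 1, 13 of them cytosolic and 14 mitochondrial. The letters were in 5 of the 13 cytosolic windows and in 0 of the 14 mitochondrial windows, against 1299 of 32851 windows of all genes (3.95%). A match is a description of these windows and not a site shown to be bound. The stretches below run from 80 bases before to 20 after the start, 5′ to 3′ on the gene's strand, with the match in capitals, because these genes are among those whose levels are followed through the 3 populations. Aars2, the mitochondrial partner of Aars, is shown as a window without the letters.
Gars (chr6:55037921-55038020, plus strand): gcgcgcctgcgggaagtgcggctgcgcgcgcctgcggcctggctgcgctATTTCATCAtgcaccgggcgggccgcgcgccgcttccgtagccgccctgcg
Aars (chr8:111033762-111033861, plus strand): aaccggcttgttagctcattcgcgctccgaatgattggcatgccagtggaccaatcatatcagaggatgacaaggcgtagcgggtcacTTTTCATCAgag
Yars (chr4:129189823-129189922, plus strand): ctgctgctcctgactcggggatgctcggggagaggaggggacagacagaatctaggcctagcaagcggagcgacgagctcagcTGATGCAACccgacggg
Tars (chr15:11399639-11399738, minus strand): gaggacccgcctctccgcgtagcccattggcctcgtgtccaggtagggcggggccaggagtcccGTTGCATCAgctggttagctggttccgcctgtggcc
Iars (chr13:49682050-49682149, plus strand): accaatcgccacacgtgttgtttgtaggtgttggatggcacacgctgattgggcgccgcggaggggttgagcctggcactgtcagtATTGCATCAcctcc
Aars2 (chr17:45506752-45506851, plus strand): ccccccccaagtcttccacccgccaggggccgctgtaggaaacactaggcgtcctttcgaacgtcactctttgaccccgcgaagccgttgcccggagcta
In Gars, Aars, Tars and Iars the letters lay on the opposite strand, and in Yars on the gene's own strand. The match began 31 bases before the start in Gars and 16 before it in Tars, and 8, 6 and 3 bases after it in Aars, Iars and Yars. Aars held a second match further upstream, outside the stretch shown.

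All 38 genes were expressed, and all passed the filter on low values (at least 1 RPKM in at least 2 libraries). In CD25 cells the aspartyl enzyme Dars was the most abundant at 214 RPKM ± 5.18 (SD, n = 4), above the asparaginyl enzyme Nars at 114 ± 4.91, and their libraries did not overlap. In ISP cells Nars (161 ± 6.97), Dars (157 ± 6.54) and Gars (154 ± 6.04) led and overlapped in their libraries. In DP cells Dars led again at 92.0 ± 5.96, followed by Gars (76.9 ± 8.06), Nars (72.0 ± 6.17), the histidyl enzyme Hars (62.8 ± 6.13) and the glutaminyl enzyme Qars (58.8 ± 3.76), each overlapping the next. The lowest levels were those of Ears2, Wars2 and Tarsl2, the mitochondrial glutamyl and tryptophanyl enzymes and the second cytosolic threonyl enzyme, with means of 0.939 to 3.56 RPKM in the 3 populations. Rars2, the mitochondrial arginyl enzyme, was the most abundant of its class in CD25 cells at 49.6 ± 1.97 and lay above the cytosolic Cars, Lars and Aars in every CD25 library. Exons of 15 members overlap another annotated gene, among them Aars, Cars, Yars, Mars, Hars, Farsb, Cars2, Ears2, Fars2, Hars2, Iars2, Nars2, Vars2 and Tarsl2, and how the authors split such reads is not given in the sources used here, so their levels are less certain.

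The 20 cytosolic genes summed to 1459 RPKM ± 24.8 (SD, n = 4) in CD25, 1722 ± 39.9 in ISP and 942 ± 73.9 in DP libraries. The 17 mitochondrial genes summed to 308 ± 7.31, 278 ± 5.95 and 233 ± 5.35. The cytosolic sum was therefore highest in ISP and lowest in DP cells, with no overlap between the populations, while the mitochondrial sum was lower at each step, also without overlap. Set against the summed RPKM of all genes, the mitochondrial sums of ISP and DP libraries did overlap. ISP control library 2 had 271 of 504677 RPKM, a smaller share than the 231 of 424114 in DP control library 2. The ratio of the sums was 4.74 ± 0.0701 in CD25, 6.20 ± 0.128 in ISP and 4.05 ± 0.232 in DP libraries. All members together made up 0.383% to 0.391% of the summed RPKM of all genes in CD25 and 0.396% to 0.419% in ISP libraries, but 0.260% to 0.276% in DP libraries. These sums are descriptions, because genes of a class are not replicates. In sorted cells, RNA from fewer cells of a kind and less RNA per cell cannot be told apart.

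**Figure D1:**
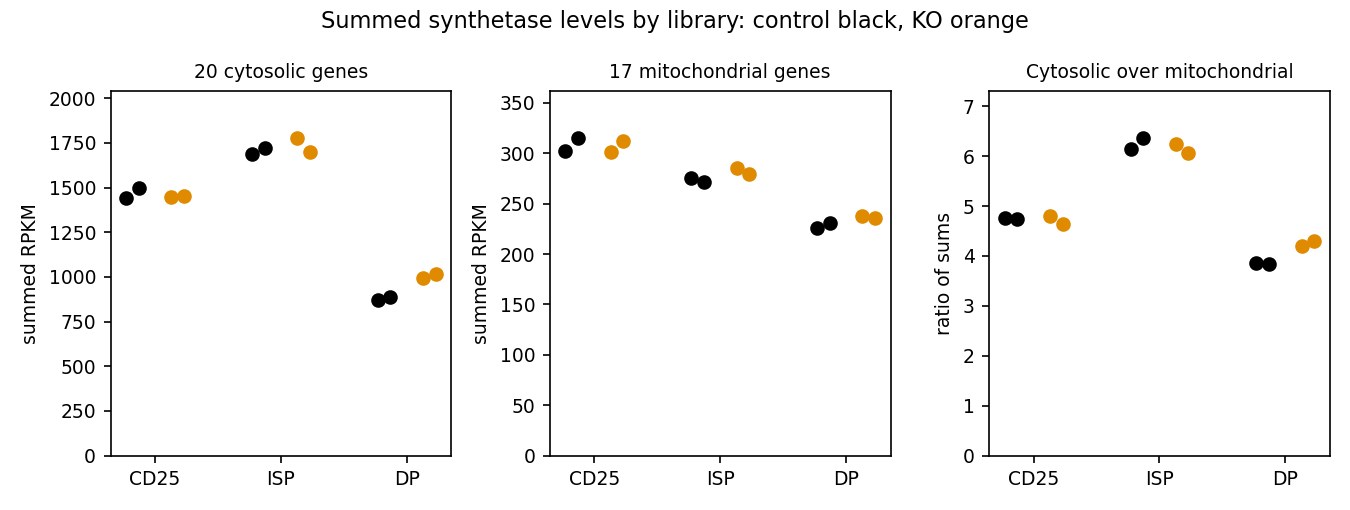
Summed RPKM (vertical axes, from 0) of the 20 cytosolic genes, of the 17 mitochondrial genes, and the ratio of the sums, with 1 point per library, controls in black and KO in orange. The cytosolic sum peaks in ISP libraries at 1688 to 1777 RPKM, and the mitochondrial sum is lowest in DP libraries at 226 to 238 RPKM.

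From CD25 to ISP cells most called genes rose in the cytosolic class and fell in the mitochondrial class. Among the 20 cytosolic genes 12 rose, 2 fell and 6 were not called, with a median change of 0.28. Among the 17 mitochondrial genes 3 rose, 10 fell and 4 were not called, with a median of -0.29. Over all members 15 were called higher, where 33.1% of all genes tested were, and 12 lower, where 30.9% were, so the totals are near the background and only the split between classes differs from it. The median of all genes tested was 0.01. The difference between these median changes was 0.57. Another measure is the difference between the median log2 levels of the classes in each library, with a spread of 0.06 between libraries of a group. It was 2.04 to 2.19 in CD25 and 2.00 to 2.15 in ISP libraries, so by this measure the classes did not move apart. The genes not called were Eprs, Farsb, Iars, Lars, Qars and Rars in the cytosolic class, with Fars2, Vars2 and Yars2 among those in the mitochondrial class, and Tarsl2. Population and anti-CD3 culture go together in this comparison and cannot be told apart.

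Gars rose the most. Its level was 84.0 and 87.8 RPKM in the CD25 control, 83.0 and 79.1 in the CD25 KO, 154 and 155 in the ISP control and 162 and 147 in the ISP KO libraries. The mean went from 83.5 ± 3.59 to 154 ± 6.04 (SD, n = 4), a 1.85-fold rise (log2 change 0.88, SE 0.05, limma adjusted p = 1.18e-08). All ISP libraries lay far above all CD25 libraries. Cars, the cysteinyl enzyme, was at 24.7, 29.2, 27.1 and 25.6 RPKM in CD25 and 49.4, 46.8, 50.8 and 45.2 in ISP libraries (0.83, SE 0.06, limma adjusted p = 2.03e-07). Sars, the seryl enzyme, was at 45.7, 49.1, 45.5 and 43.6 in CD25 and 80.6, 82.4, 82.9 and 71.9 in ISP libraries (0.78, SE 0.05, limma adjusted p = 1.22e-07). Neither gene overlapped between the populations. Yars was at 46.9, 43.2, 39.9 and 42.1 in CD25 and 70.5, 68.3, 70.0 and 59.9 in ISP libraries (0.63, SE 0.06). Aars was at 39.7, 42.8, 40.5 and 38.9 in CD25 and 58.9, 61.9, 60.6 and 55.8 in ISP libraries (0.54, SE 0.06). These too lay apart in every library, with the control libraries listed first in each population. Of the 5 members with the response element letters, Gars, Aars, Yars and Tars (0.34) rose, where 12 of 20 cytosolic genes and 33.1% of all genes tested did. Iars, at 55.4 ± 2.60 and 57.5 ± 3.24, was not called (adjusted p = 0.424). Among cytosolic genes whose window lacked the letters, Sars, Mars, Kars and Farsa rose, Dars fell, and Eprs, Farsb and Qars were not called. Cars had no window. A link between the letters and the changes was not tested.

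The rise was mostly in enzymes that work outside the multi-synthetase complex, a particle that holds the arginyl, aspartyl, glutaminyl, glutamyl-prolyl, isoleucyl, leucyl, lysyl and methionyl enzymes. Outside the complex 10 of 12 cytosolic genes rose, 1 fell and 1 was not called, with a median of 0.42. Of the 8 complex enzymes 2 rose (Mars, the methionyl enzyme, 0.43, and Kars, the lysyl enzyme, 0.23), Dars fell and 5 were not called, with a median of 0.05. The difference between these groups of genes was described and has no test. Mars shares exon sequence with Ddit3 on the opposite strand, and whether reads were counted by strand is not given, so reads of this pair cannot be told apart. With RPKM rescaled to the same sum in every library, Farsa and Kars were no longer called and Eprs and Qars were called lower, and after quantile normalization Farsa changed sign and was not called.

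Dars was at 221, 209, 213 and 215 RPKM in CD25 and 148, 163, 159 and 155 in ISP libraries (-0.45, SE 0.04, limma adjusted p = 2.94e-06). The tryptophanyl enzyme Wars, at 53.3 ± 2.28 and 42.6 ± 0.655, was the other cytosolic gene that fell (-0.32). Both were lower in every ISP than in every CD25 library.

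Falls prevailed in the mitochondrial class. Ears2 was at 3.68, 3.83, 3.44 and 3.28 RPKM in CD25 and 2.00, 1.77, 2.22 and 2.13 in ISP libraries (-0.59, SE 0.10, limma adjusted p = 1.71e-04). Wars2 was at 3.49, 2.76, 2.86 and 2.73 in CD25 and 1.66, 1.62, 1.74 and 1.95 in ISP libraries (-0.53, SE 0.09, limma adjusted p = 3.57e-04). Both genes were low throughout, yet each ISP library was below each CD25 library. The asparaginyl enzyme Nars2 was at 8.66, 9.32, 9.43 and 9.72 in CD25 and 6.12, 6.35, 6.74 and 5.81 in ISP libraries (-0.50, SE 0.07). Among the more abundant genes, the isoleucyl enzyme Iars2 was at 38.6, 35.5, 34.4 and 37.8 in CD25 and 26.3, 27.5, 27.6 and 24.1 in ISP libraries (-0.46, SE 0.06). Rars2 went from 49.6 ± 1.97 to 37.2 ± 1.16 (-0.40). None of these overlapped between the populations. Cars2, Hars2, Lars2, Pars2 and Tars2 also fell, by 0.19 to 0.36 on the log2 scale. The 3 mitochondrial genes that rose were Aars2 (0.49), the seryl enzyme Sars2 (0.36) and the methionyl enzyme Mars2 (0.21). Aars2 was at 12.2 to 12.5 RPKM in the CD25 and 17.1 to 19.4 in the ISP libraries, a clear gap, whereas the call of Mars2 was lost after that rescaling.

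From ISP to DP cells nearly the whole family fell. Of all members 30 were called lower, where 35.0% of all genes tested were, and 4 were called higher, where 35.6% were. The cytosolic genes account for 19 of the falls with a median of -0.84, and only Qars was not called. In the mitochondrial class 11 fell, 4 rose and 2 were not called, with a median of -0.29. The median of all genes tested was 0.01. The difference between these median changes of the classes was -0.55. In each library, the median log2 levels of the classes differed by 2.00 to 2.15 in ISP and by 1.57 to 1.71 in DP.

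Vars, the valyl enzyme (chr17:35000987-35016322, plus strand), fell the most. It was at 112, 114, 121 and 116 RPKM in the ISP libraries (2 control, then 2 KO), at 34.8 in both DP control libraries and at 47.3 and 48.0 in the DP KO libraries. Its mean of 41.2 ± 7.44 in DP was 2.80-fold below the 116 ± 3.67 of ISP (-1.48, SE 0.04, limma adjusted p = 1.35e-10). No DP library came near an ISP library. Yars, at 70.5, 68.3, 70.0 and 59.9 in ISP, was at 27.4, 25.4, 31.2 and 29.9 in DP libraries (-1.21, SE 0.06, limma adjusted p = 2.73e-09). Nars, at 161, 151, 168 and 161 in ISP, was at 66.4, 67.6, 74.6 and 79.6 in DP libraries (-1.15, SE 0.05, limma adjusted p = 7.99e-10). Both genes had risen from CD25 to ISP cells. Iars was at 56.5, 56.5, 62.2 and 54.8 in ISP and 26.4, 24.5, 27.1 and 25.9 in DP libraries (-1.12). Kars was at 108, 109.7, 108 and 121 in ISP and 44.5, 46.6, 53.3 and 62.5 in DP libraries (-1.11). Again no library overlapped. Gars went from 154 ± 6.04 to 76.9 ± 8.06, a 2.01-fold fall (limma adjusted p = 2.67e-09).

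Qars stood apart among the cytosolic genes. It was at 57.9, 59.6, 58.7 and 54.4 RPKM in ISP and at 58.5, 54.9, 63.9 and 58.1 in DP libraries (0.03, SE 0.05, limma adjusted p = 0.633), and its highest library was 1.18-fold above its lowest over all 12. Its libraries overlapped between all populations. After rescaling to equal sums Qars was called higher in DP. Mitochondria have no glutaminyl enzyme of their own and make glutaminyl-tRNA by amidation, through the enzyme complex of Qrsl1, Gatb and Gatc.

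The mitochondrial genes that rose were Vars2, Wars2, Aars2 and the histidyl enzyme Hars2. Vars2 was at 10.7, 8.90, 10.3 and 10.4 RPKM in ISP and 14.4, 17.1, 14.4 and 13.7 in DP libraries (0.52, SE 0.07, limma adjusted p = 4.60e-05). Aars2 was at 17.1 to 19.4 in ISP and at 22.7, 23.0, 25.0 and 22.6 in DP libraries (0.37, SE 0.05, limma adjusted p = 6.35e-05). Wars2 was at 1.66, 1.62, 1.74 and 1.95 in ISP and 2.62, 2.65, 2.79 and 2.35 in DP libraries (0.39, SE 0.09). These genes did not overlap between ISP and DP libraries, and Aars2 had risen at the earlier step too. Hars2 was at 18.6, 18.7, 19.6 and 18.5 in ISP and 20.6, 24.0, 20.2 and 20.7 in DP libraries. Its rise (0.17, limma adjusted p = 0.0177) was small beside the spread in DP and was not called without ISP KO library 2 (adjusted p = 0.0630) or without DP control library 2 (adjusted p = 0.0898). Hars2 shares exon sequence with Hars on the opposite strand, so reads of the pair cannot be told apart there. Vars2 shares exon sequence with an annotated antisense gene, with the same limit.

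Yars2, the mitochondrial tyrosyl enzyme, fell the most in its class, from 28.2 ± 2.54 to 13.6 ± 3.41 RPKM (-1.02, SE 0.10), ahead of Rars2 (37.2 ± 1.16 to 22.7 ± 2.11, -0.69) and Ears2 (-0.65). Ears2 reached 0.786, 0.790, 1.29 and 0.886 RPKM in the DP libraries, with as few as 54 reads. Rescaling to equal sums took the median of all genes in this comparison from 0.01 to 0.16 and the calls from 4024 higher and 3959 lower of 11303 genes to 5534 and 3191 of 12275. It set each sum above its deposited value, so the same filter let in more genes and the pseudocount weighed less, and the effects of these are not separated from that of the scaling. Under it 19 cytosolic genes were still called lower, but the mitochondrial class split into 7 lower and 5 higher, as Iars2, Lars2, Pars2 and Sars2 were no longer called and the phenylalanyl enzyme Fars2 was called higher. The same rescaling moved ISP against CD25 from 3739 genes higher and 3489 lower to 2892 and 4845, and its median from 0.01 to -0.11.

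**Figure D2:**
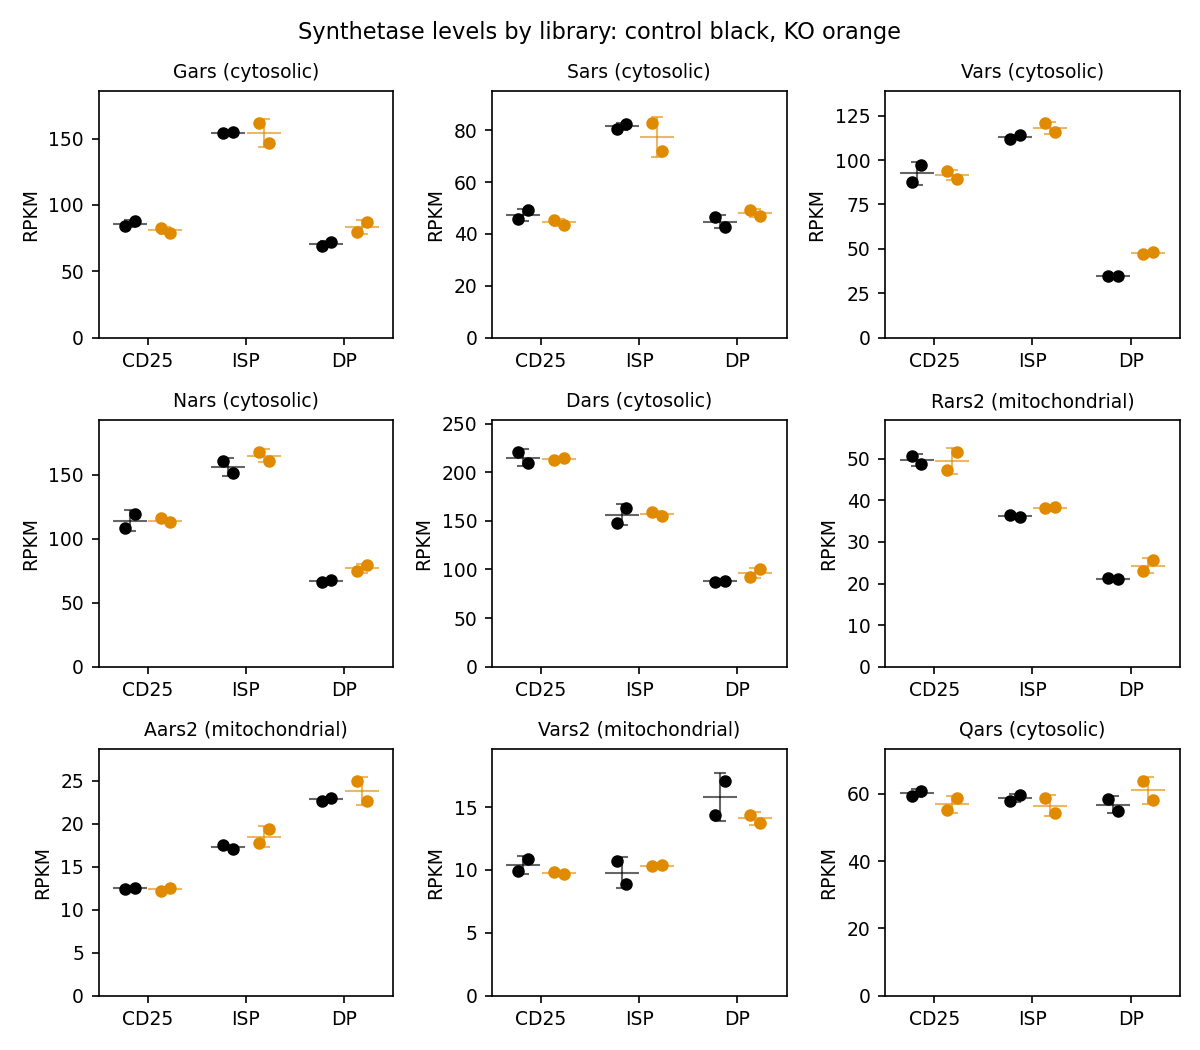
RPKM (vertical axes, from 0) of 9 synthetase genes by population, with controls in black and KO in orange, points for libraries, and lines and bars for the mean and SD of the 2 libraries of a group. Gars, Sars and Nars peak in ISP, Dars and Rars2 fall at both steps, Aars2 rises at both, and Qars stays between 54.4 and 63.9 RPKM.

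Against CD25 cells, DP cells had 29 members lower (38.4% of all genes tested were) and 2 higher (37.3% of all genes). The cytosolic class had 17 lower and 3 not called with a median of -0.62, and the mitochondrial class 11 lower, 2 higher and 4 not called with a median of -0.43. Dars was at 214 ± 5.18 RPKM in CD25 and 92.0 ± 5.96 in DP libraries (-1.21) and Rars2 at 49.6 ± 1.97 and 22.7 ± 2.11 (-1.10). The 2 that were higher were Aars2 (0.86, from 12.4 ± 0.168 to 23.3 ± 1.10) and Vars2 (0.52, from 10.1 ± 0.556 to 14.9 ± 1.51). Gars was at 83.5 ± 3.59 in CD25 and 76.9 ± 8.06 in DP, a small called fall (-0.12) that was lost after rescaling to equal sums. Of the complex enzymes 7 of 8 were lower with a median of -0.89, and of the other cytosolic enzymes 10 of 12 with a median of -0.34.

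**Figure D3:**
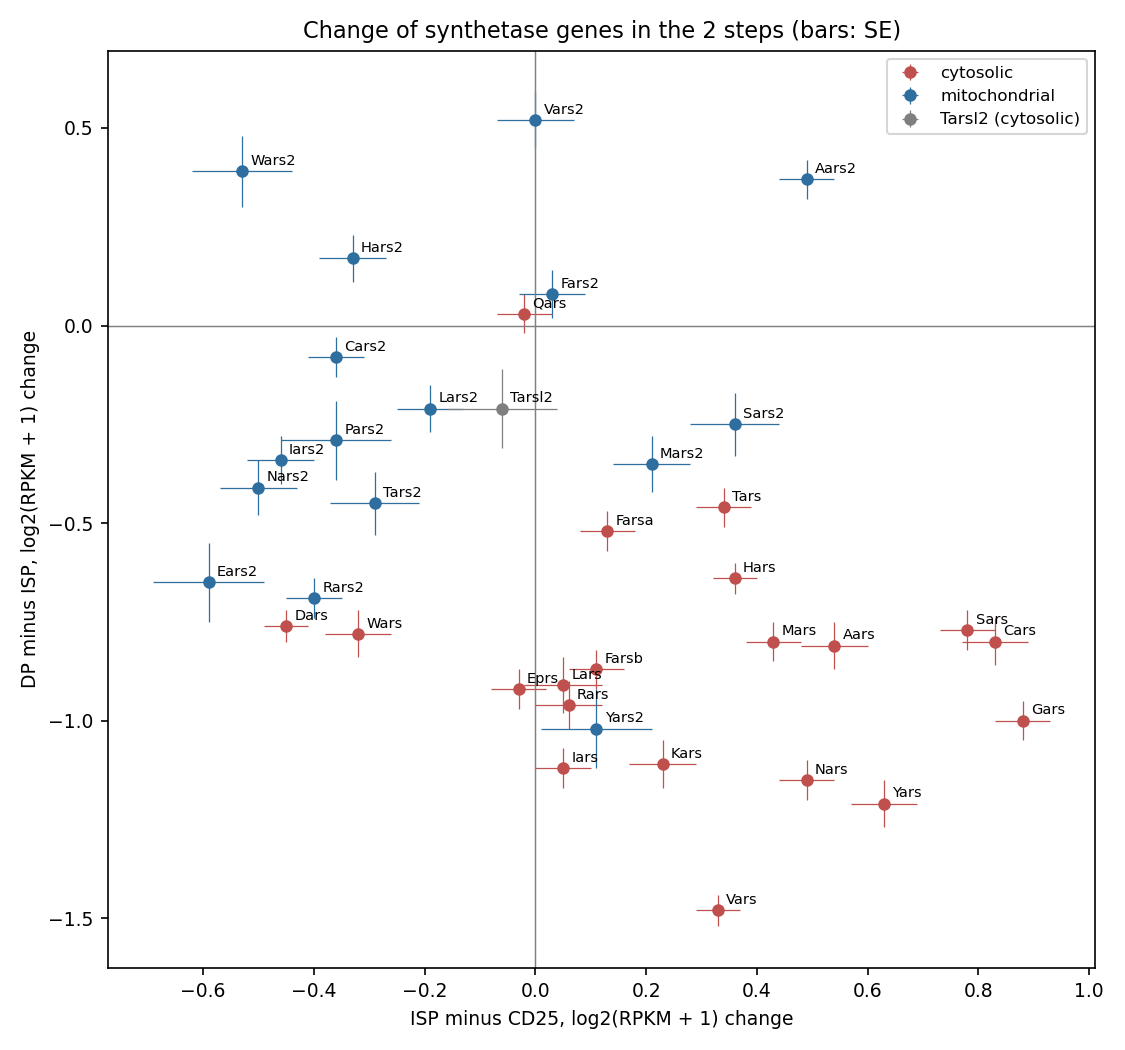
Log2(RPKM + 1) change of 37 of the genes from CD25 to ISP (horizontal) and from ISP to DP (vertical), with SE bars, cytosolic genes in red, mitochondrial in blue and Tarsl2 in grey. Both axes use the ISP libraries, so opposite signs are in part built in, and cytosolic genes lie mainly at the lower right with Qars near the centre.

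For 14 amino acids 1 cytosolic and 1 mitochondrial gene share a name apart from the ending, and these were taken as pairs. Eprs, Farsa and Farsb, which do not match Ears2, Pars2 and Fars2 one to one, were left out of the pairs. On the log2(RPKM + 1) scale the cytosolic partner changed more in the upward direction from CD25 to ISP in 13 pairs. From ISP to DP it changed more in the downward direction in all 14 on that scale. For Tars and Tars2 this difference was only -0.01, and their mean ratio in RPKM was not lower in DP. The ratio of the partners was higher in every ISP than in every CD25 library in 10 pairs and lower in 1, and lower in every DP than in every ISP library in 11 pairs and higher in 0. The ratio of Vars to Vars2 was 9.13 ± 0.288 (SD, n = 4) in CD25, 11.5 ± 0.978 in ISP and 2.81 ± 0.697 in DP libraries. Cars to Cars2 went from 0.986 ± 0.0622 to 2.31 ± 0.146 and 1.38 ± 0.0479, so that the cytosolic gene was at the level of its partner in CD25 cells and well above it in ISP cells. Nars to Nars2 went from 12.3 ± 0.522 to 25.7 ± 1.72 and 16.2 ± 0.771. The ratio of Tars to Tars2 was 2.71 ± 0.277 in CD25 and stayed at 4.24 ± 0.221 and 4.29 ± 0.192 in ISP and DP. These counts have no test, since the pairs share their libraries.

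**Figure D4:**
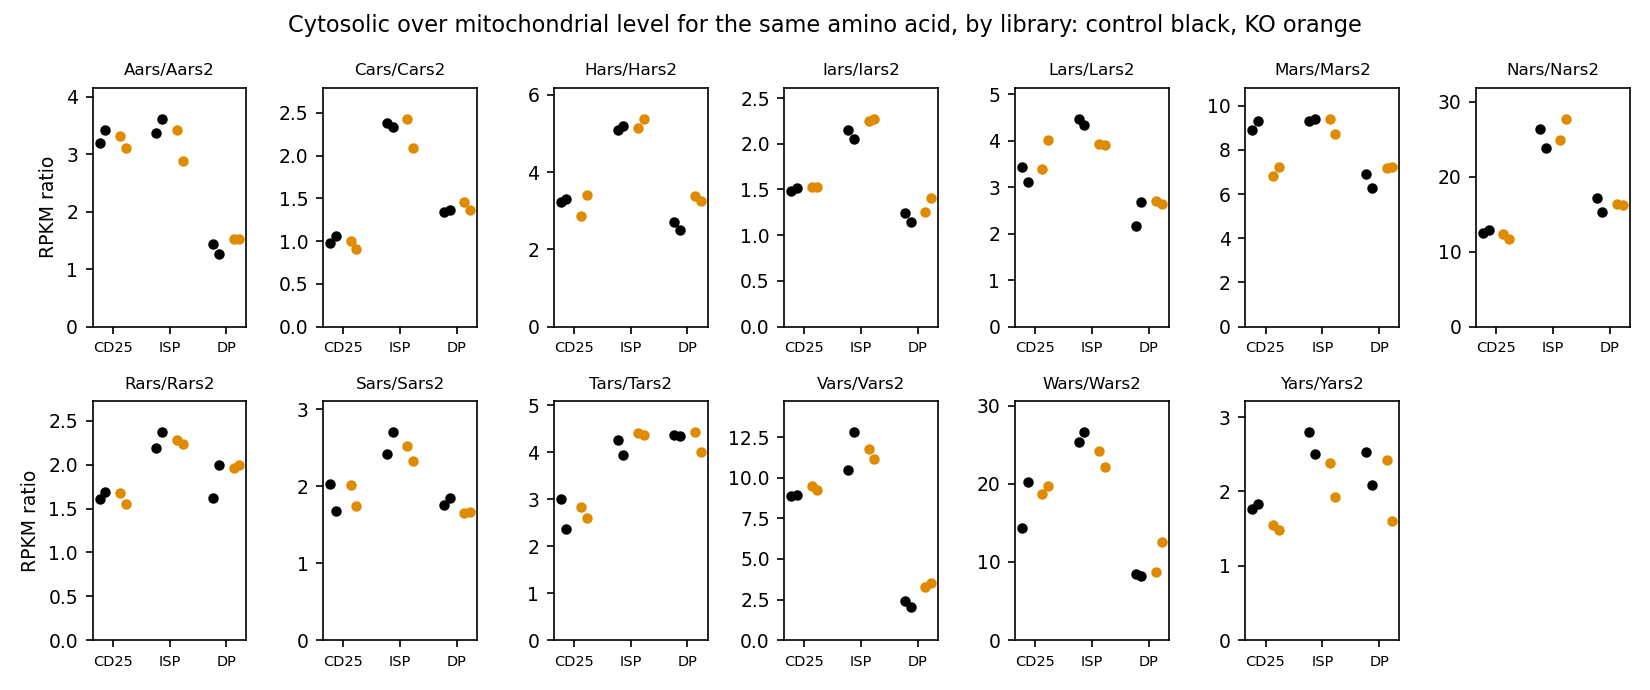
Ratio of cytosolic to mitochondrial RPKM (vertical axes, from 0) for 13 of the 14 pairs, by population, with 1 point per library, controls in black and KO in orange. Most ratios peak in ISP libraries, Vars to Vars2 drops to between 2.03 and 3.50 in DP, and Tars to Tars2 stays near its ISP level in DP.

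Genotype left no called difference in CD25 or ISP cells. In CD25, 0 of 38 members were called in either direction (0.00940% of all genes tested were called higher and 0.00940% lower), 0 had an unadjusted p under 0.05, and the smallest adjusted p was 0.560. Mars, with 51.8 and 52.3 RPKM in KO and 56.5 and 59.3 in control libraries, had that p (-0.15, SE 0.07). The next were Mars2, at 7.58 and 7.23 in KO and 6.36 and 6.39 in control (0.19, adjusted p = 0.630), and Yars, at 39.9 and 42.1 in KO and 46.9 and 43.2 in control (-0.13, adjusted p = 0.643). In ISP, 0 of 38 were called (0.257% of all genes higher and 0.0973% lower) and 2 had an unadjusted p under 0.05. Farsa, a subunit of the cytosolic phenylalanyl enzyme, was at 75.3 and 74.5 RPKM in KO and 64.6 in both control libraries (0.21, SE 0.06, limma adjusted p = 0.178). Tarsl2 was at 2.93 and 2.49 in KO and 3.75 and 4.11 in control libraries (-0.41, SE 0.14, limma adjusted p = 0.228). Both genes had no overlap between the genotypes in ISP cells and did not pass the test. Lars, the leucyl enzyme, came next with 36.8 and 36.6 in KO and 40.0 and 42.0 in control libraries (-0.16, adjusted p = 0.544).

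In DP cells 7 members were higher in KO and 0 lower, where 14.1% of all genes tested were called higher and 7.78% lower, so the count over all members is not far from the background. All 7 were cytosolic: Vars, Kars, the arginyl enzyme Rars, Wars, Gars, Hars and Nars. The median change was 0.20 in the cytosolic and 0.07 in the mitochondrial class, beside 0.00 over all genes, and 14 members had an unadjusted p under 0.05. The cytosolic sum was 870.2 and 887 RPKM in control and 995 and 1015 in KO libraries, and the ratio of the sums 3.85 and 3.84 against 4.19 and 4.30. In the same libraries Cd4 was lower in KO (249 and 191 against 344 and 338 RPKM). The sum of 8 myeloid markers, none under 0.1 RPKM in every library, was higher (53.3 and 82.0 against 20.1 and 15.0). The sum of NK and innate lymphoid markers was also higher (178 and 217 against 127 and 113). Most of that sum was Gzma (146 and 187 against 103 and 93.2), while the NK marker Ncr1 was lower in KO (0 and 0.0719 against 0.844 and 0.224). In ISP cells the myeloid sum was 40.0 and 57.1 in KO and 16.4 and 15.7 in control. The part of these in the results was not tested.

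Vars showed the clearest difference. It was at 34.8 RPKM in both control libraries and at 47.3 and 48.0 in KO, a mean of 34.8 ± 0.0164 against 47.7 ± 0.491 (SD, n = 2), which is 1.37-fold higher (0.44, SE 0.06, limma adjusted p = 7.79e-04). The gap was many times the spread within either genotype. Kars was at 44.5 and 46.6 in control, against 53.3 and 62.5 in KO libraries (0.34, SE 0.08, limma adjusted p = 0.0133). Rars was at 34.5 and 42.0 in control, against 45.3 and 51.1 in KO libraries (0.33, SE 0.09, limma adjusted p = 0.0185). In both genes the genotypes did not overlap, but the 2 libraries of a genotype lay well apart. Gars, at 68.8 and 72.3 against 79.7 and 86.9 (0.24, adjusted p = 0.0253), and Wars, at 22.2 and 21.9 against 24.3 and 29.6 (0.27, adjusted p = 0.0414), were smaller. Hars (0.23) and Nars (0.20) completed the list.

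Apart from Vars these calls rested on single libraries. The number of members called higher was 1 without DP control library 1, 4 without DP control library 2 and 1 without DP KO library 2, where that 1 was Vars. Rescaling to equal sums left 2, Vars and Kars, with Fars2 called lower, and moved all genes from 1597 higher and 879 lower to 945 and 1675. Quantile normalization left 4 cytosolic genes, without Gars, Hars and Nars, and added the mitochondrial Yars2. Grouped by library name in place of title, the same comparison gave 3 members higher and 27 lower in KO. That grouping sets libraries titled DP (Cd4 at 344 and 249 RPKM) against libraries titled ISP (17.4 and 13.9). It is thus no second comparison of the genotypes within DP cells, and the comparison given here rests on the titles.

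**Figure D5:**
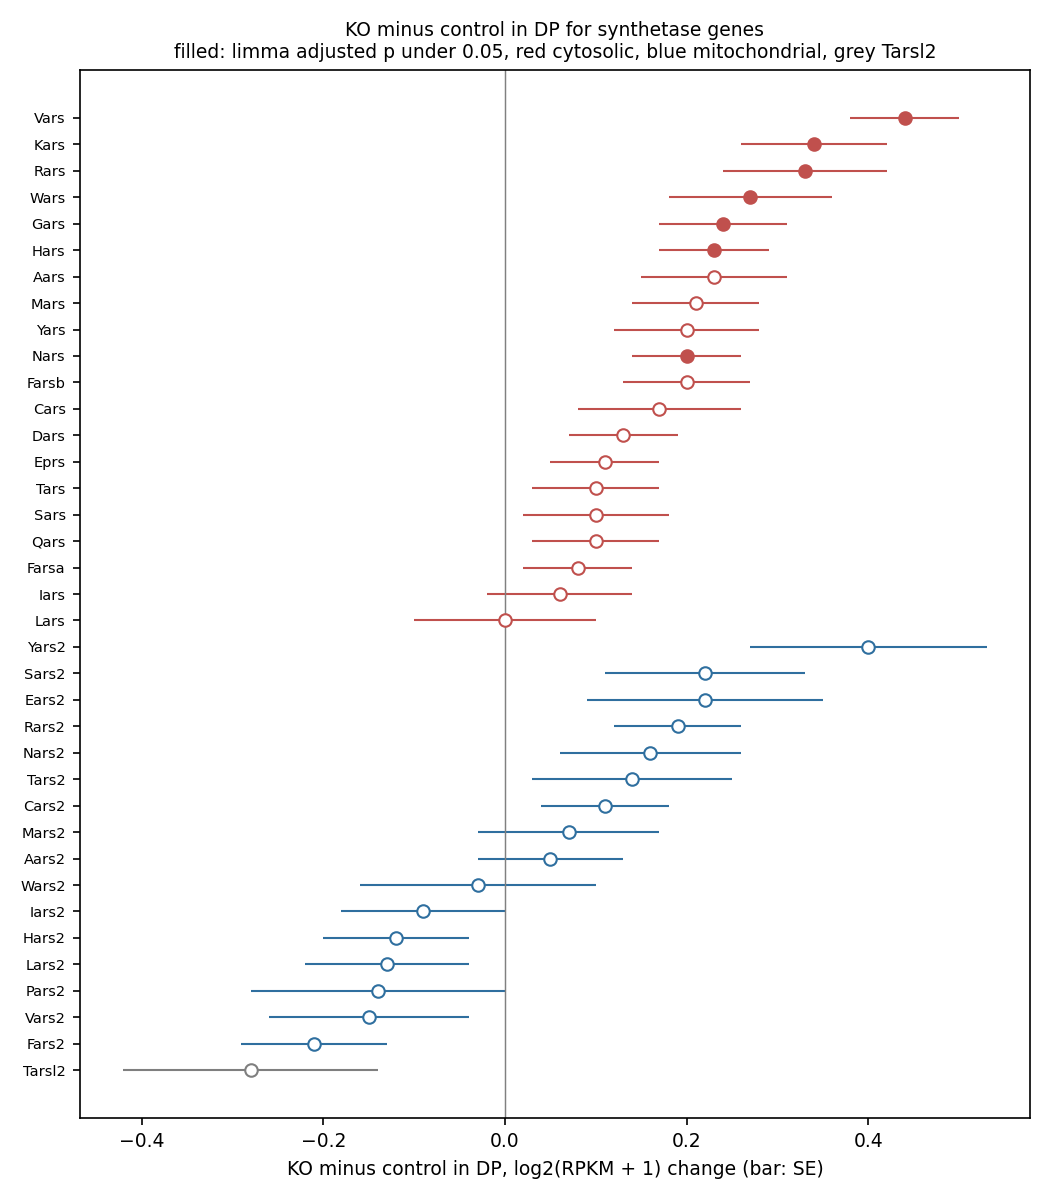
KO minus control difference in log2(RPKM + 1) in DP cells for 37 members with their SE, cytosolic genes in red, mitochondrial in blue and Tarsl2 in grey, filled where called. The called genes lie between 0.20 (Nars) and 0.44 (Vars), and Yars2 at 0.40 with an SE of 0.13 was not called.

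The mitochondrial genes in DP cells gave no call, with an adjusted p of 0.0526 for Yars2, the smallest, which was called after quantile normalization. Yars2 was at 10.8 and 12.2 RPKM in control and 12.9 and 18.6 in KO libraries, so its difference came mainly from 1 KO library. Fars2 was at 21.5 and 20.6 in control, against 17.9 and 18.4 in KO libraries (-0.21, adjusted p = 0.105), and Tarsl2 at 3.09 and 3.08 in control and 2.51 and 2.21 in KO (-0.28, adjusted p = 0.180).

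Whether the step from ISP to DP itself differed between the genotypes was tested by the interaction. Of 38 members 1 was called higher and 0 lower (3.67% and 0.522% of all genes tested). That gene was Vars, whose fall was smaller in KO by 0.38 (SE 0.09, limma adjusted p = 0.0337). The call was lost when any library was left out other than the 2 CD25 control libraries and DP KO library 1 (adjusted p from 0.0513 to 0.121), without the filter on low values (adjusted p = 0.0537) and after rescaling (adjusted p = 0.0977). No member was called for the step from CD25 to ISP (0% of all genes in either direction), where 1105 of 11303 genes had an unadjusted p under 0.05.

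The partners of the synthetases were followed as 8 scaffolds and trans-acting genes, among them the scaffolds Aimp1, Aimp2 and Eef1e1 of the multi-synthetase complex, the editing enzyme Aarsd1 and the transfer RNA exporter Xpot. From CD25 to ISP 4 of 8 rose and 1 fell (median 0.16), from ISP to DP 8 of 8 fell (median -1.12), and in DP cells 4 were higher in KO and 0 lower (median 0.19). Over all genes the shares called were 33.1% higher and 30.9% lower, then 35.0% lower, then 14.1% higher, and these stand behind the counts of every list below too. After rescaling to equal sums 3 rose and 3 fell from CD25 to ISP (median 0.04). In DP cells 2 were higher in KO without DP control library 1 or without DP KO library 2, when Aimp1 (adjusted p = 0.237 and 0.150) and Eef1e1 (adjusted p = 0.0657 and 0.0764) were not called. Aimp2 was at 82.8, 89.1, 91.0 and 87.8 RPKM in ISP, 24.3 and 23.9 in DP control and 38.2 and 42.1 in DP KO libraries. The fall was -1.46 (SE 0.05) and the difference between genotypes in DP 0.71 (SE 0.07, limma adjusted p = 1.75e-04), with every KO library above every control. Aarsd1 was at 32.0 and 26.8 in DP control and 43.6 and 47.5 in DP KO (0.62, adjusted p = 0.00319). Xpot fell from 20.7 ± 1.05 in ISP to 7.85 ± 0.452 in DP (-1.29) and did not pass the test between genotypes (-0.09, adjusted p = 0.465).

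Cytosolic elongation factors bring charged transfer RNA to the ribosome and move it along. Their list of 8 genes also holds Eef2k, a kinase of Eef2, and Eef1e1, already counted among the scaffolds above. In this list 4 of 8 genes were higher and 2 lower in ISP, and 8 of 8 were lower in DP (median -1.17). In DP cells 6 of 8 were higher in KO. From CD25 to ISP 1 was higher and 2 lower both after rescaling (median 0.01) and after quantile normalization (median -0.01). In DP cells 4 were higher in KO after rescaling, and likewise 4 without either DP control library or without DP KO library 2. Eef1a1, the main carrier of aminoacyl-tRNA, went from 1754 ± 67.9 RPKM in ISP to 871 ± 88.6 in DP (-1.01), and stood at 785 and 804 in DP control and 959 and 935 in DP KO libraries (0.25, adjusted p = 0.0155). This difference was not called after rescaling (adjusted p = 0.0864), after quantile normalization (0.01, adjusted p = 0.958), or without DP control library 1 (adjusted p = 0.111) or 2 (adjusted p = 0.0735). Of the 10 mitochondrial translation factors 4 rose and 2 fell from CD25 to ISP, 1 rose and 5 fell from ISP to DP, and 2 were higher in KO in DP, against 0 higher and 1 lower after rescaling and 0 to 2 higher when a DP library was left out (0 without DP control 2 or DP KO 2). The 9 partners of mitochondrial aminoacylation had 0 higher and 2 lower, then 0 higher and 4 lower, the latter becoming 3 higher and 4 lower (median 0.05) after rescaling. Pus1, a pseudouridine synthase of transfer RNA, showed the largest of these falls (24.4 ± 1.78 to 8.17 ± 2.56 RPKM, -1.51), while Qrsl1 (-0.53) and Gatb (-0.70), which make mitochondrial glutaminyl-tRNA, fell and Gatc (-0.05, adjusted p = 0.327) was not called.

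Of 26 genes of the ATF4 programme, which provides amino acids by synthesis and uptake, 25 were tested. All 25 rose from CD25 to ISP with a median of 0.88, beside 0.01 over all genes, or 22 of 25 after rescaling to equal sums. From ISP to DP 21 fell, 3 rose and 1 was not called (median -0.96). Asns, asparagine synthetase, was at 11.7, 12.2, 11.9 and 13.9 RPKM in CD25, 72.2, 70.8, 79.2 and 56.2 in ISP and 12.2, 8.20, 13.3 and 12.5 in DP libraries, with changes of 2.39 and -2.50. Atf4 itself went from 75.5 ± 5.62 to 102 ± 3.54 and 66.8 ± 5.60 (0.44, then -0.61). The 3 that rose from ISP to DP were Ddit4, Ddit3 and the cystine carrier gene Slc7a11. In DP cells 7 of 25 were higher in KO and 0 lower (5 after rescaling, and 5 to 8 when a DP library was left out), among them the serine and glycine enzymes Psat1 (28.0 ± 1.32 in control, 39.4 ± 1.47 in KO) and Shmt2 (44.7 ± 5.58 and 77.5 ± 6.50).

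Among 8 measured kinases of eIF2α and their regulators 1 rose and 3 fell from CD25 to ISP, and 4 rose and 2 fell from ISP to DP, or 5 and 0 after rescaling. Eif2ak4, which encodes GCN2, fell at both steps (5.58 ± 0.476, 3.84 ± 0.197 and 2.94 ± 0.581 RPKM), the later fall not being called after rescaling (adjusted p = 0.0789), and Eif2ak3, which encodes PERK, rose from ISP to DP (13.3 ± 1.23 to 22.8 ± 3.33, 0.73). In DP cells both were lower in KO (-0.36, adjusted p = 0.0414, and -0.32, adjusted p = 0.0482), calls that were both lost without any 1 of the 4 DP libraries, with adjusted p from 0.0538 to 0.262. The Myc network had 2 of 6 genes higher and 3 lower in ISP and 1 higher and 1 lower in DP, or 1 and 3, then 2 and 1, after rescaling. Myc, a transcription factor of cell growth, was at 172 to 196 RPKM in CD25 and 130.2 to 153 in ISP libraries, then 20.9 and 18.8 in DP control and 35.5 and 41.6 in DP KO libraries. Its level fell from CD25 to ISP (-0.39) and fell again to DP (-2.33). A link to the synthetase levels was not tested. Between genotypes in DP it differed by 0.92 (SE 0.08, limma adjusted p = 1.03e-04), and the genotypes did not overlap.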

How the data were processed

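RNA-seq of 12 libraries was deposited as 1 table of 24421 genes whose header names no unit. The steps of its values follow gene length, so they were taken as RPKM computed by the authors before they were deposited. Dividing by the value of 1 read gave whole reads for 169595 of 169595 values above 0 (100%, within 0.02 reads), over denominators of 9508841 to 14356391 reads. BWA and GRCm38 are named in the submitters' processing notes, and for the counter, annotation, filters and strand nothing is given in these sources. Groups follow sample titles. Libraries of a group differed beyond sampling noise (chi-square per degree of freedom of 3.30 to 7.25), so none was the same library sequenced again. Separate preparations of the same RNA cannot be told from separate samples in this way. In ISP control and in DP control the libraries differed in their mix of sexes, so there they were not preparations of the same RNA.

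Genes that reached 1 RPKM in 2 or more libraries were tested as log2(RPKM + 1) with limma 3.58.1 (R 4.3.3, trend) and Benjamini-Hochberg adjustment. 1 fit held all 12 libraries in 6 groups (11303 genes, 6 residual degrees of freedom). For KO against control in CD25 a fit to these 4 libraries alone (10636 genes, with 2 residual degrees of freedom) was used. Populations were compared as the mean of both genotypes, the 2 genotypes weighted equally. The fit was tested on simulated data. SDs between 4 libraries of a population span both genotypes. Alternatives were another pseudocount, filter, scaling, voom on recovered reads, a replicate block, other groupings and leaving out each library. Gene positions came from GENCODE M21 by symbol. Tables and plots used pandas 2.3.3, numpy 2.4.6 and matplotlib 3.10.9 under Python 3.11.15.

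The rule for the members uses gene names only, but the family, the gene lists and the alternatives were chosen with earlier results of these data known. Members given with every library were the up to 5 called members with the largest rise and the up to 5 with the largest fall in each comparison, or, where fewer than 3 were called, the 3 with the smallest p. Other genes named illustrate a list or a class and were picked with their values known. 1 member enters the counts and class sums but is not reported by itself here.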

Additional observations from a re-analysis of the deposited data

Results flagged for a closer look

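These are genes of the family and of the lists above that were called by the interaction test. It asks whether the change from ISP to DP differed between KO and control. Over all genes tested, 415 of 11303 were called higher and 59 lower, or 171 and 69 of 12275 after rescaling to equal sums. The limits given above for the call of Vars apply here too, and the other calls are given without alternatives. The difference (KO minus control, log2 scale) was 0.38 for Vars (SE 0.09, limma adjusted p = 0.0337), the only synthetase among them. Aimp2, a scaffold of the multi-synthetase complex, had 0.65 (SE 0.10, limma adjusted p = 0.00959), and the editing enzyme Aarsd1 had 0.70 (SE 0.16, limma adjusted p = 0.0337). Of the genes of serine and glycine synthesis, Shmt2 had 0.78 (SE 0.14, limma adjusted p = 0.0141), Phgdh 0.55 (SE 0.12, limma adjusted p = 0.0271) and Psat1 0.53 (SE 0.09, limma adjusted p = 0.0136). The transcription factors Myc and Cebpb had 0.74 (SE 0.11, limma adjusted p = 0.0101) and 1.01 (SE 0.22, limma adjusted p = 0.0271). In each case the positive sign means that KO cells were higher relative to control in DP than in ISP.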

How the results depend on the processing

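The main limits are 2 libraries in a group, titles that disagree with library names, and low levels of Ears2, Wars2 and Tarsl2. With a pseudocount of 0.1 and with the replicate block all 62 results kept their direction and their side of the threshold. Same-numbered libraries deviated together weakly at most (correlations from -0.07 to 0.12 over 15 pairs of groups, 1 of them over 0.1). The highest was that of ISP control with DP control. In these groups Ddx3y was at 7.28 and 15.7 RPKM in the libraries numbered 1 and at 29.7 and 56.3 in those numbered 2. Whether the numbers pair libraries cannot be told from these correlations. With the replicate block 16 members rose and 12 fell from CD25 to ISP, 4 rose and 30 fell from ISP to DP, 2 were higher and 29 lower in DP than in CD25, 8 were higher in KO in DP, and 1 differed in the step from ISP to DP.

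Leaving out 1 library gave 13 to 15 members higher and 11 to 12 lower in ISP than in CD25, 3 to 4 higher and 29 to 30 lower in DP than in ISP, 2 to 3 higher and 25 to 29 lower in DP than in CD25, 1 to 8 higher in KO in DP, and 0 to 3 with a genotype difference in the step from ISP to DP (3 without DP KO library 1). Between genotypes in DP, Kars was lost without DP control 1 (adjusted p = 0.0873) or DP KO 2 (adjusted p = 0.126), and Wars in 9 of 12 such fits. Keeping only the anti-CD3 libraries whose title and library name name 1 population left 2 members higher in DP than in ISP. With those libraries beside the CD25 libraries, an alternative chosen after seeing the data, 13 members were higher and 11 lower in ISP, and 2 higher and 25 lower in DP.

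Members higher in KO in DP numbered 11 with a filter of 5 RPKM (35 members tested), 2 after rescaling to equal sums (1 was then lower) and 2 with the 4 DP libraries alone. The genotype difference in the step from ISP to DP gave 0 members without the filter and 0 after rescaling. The cytosolic minus mitochondrial difference of median changes from CD25 to ISP was 0.47 with the filter of 5 RPKM and 0.40 after quantile normalization. The latter gave -0.44 from ISP to DP and 0.03 for KO in DP. The cause of these shifts was not tested.

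Grouping by library name in place of title gave 5 members higher and 20 lower in ISP than in CD25, 0 higher and 0 lower in DP than in ISP, 6 higher in DP than in CD25, 3 higher and 27 lower in KO in ISP, 3 higher and 27 lower in KO in DP, 0 in the step from ISP to DP and 1 higher and 23 lower in that from CD25 to ISP. The change from CD25 to ISP was then -0.03 for Yars, -0.42 for Aimp2 and 0.40 for Mxd4. From ISP to DP it was -0.04 for Hars2, 0.00 for Vars, 0.11 for Yars, 0.01 for Nars, 0.09 for Iars, 0.06 for Xpot, 0.01 for Aarsd1, 0.03 for Psat1, 0.14 for Shmt2 and 0.09 for Aldh18a1. By library name, the KO groups of ISP and DP hold only libraries titled DP, and their control groups only libraries titled ISP. What this grouping calls KO minus control is therefore DP minus ISP by title, also in the counts above. So named, Farsa was at -0.50 in ISP. In DP the difference was -1.49 for Vars, -1.13 for Kars, -1.06 for Rars, -0.83 for Wars, -1.08 for Gars, -1.48 for Aimp2, -1.12 for Aarsd1, -1.44 for Eef1e1, -0.55 for Aimp1, -2.17 for Shmt2, -1.34 for Cebpb, -1.89 for Psat1, -1.74 for Phgdh and -2.33 for Myc. For Vars in the step from ISP to DP it was -0.03.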

Other observations

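Synthetases fall into classes I and II by the fold of their catalytic domain, and Eprs holds a domain of each and was left out here. From CD25 to ISP cells 5 of 18 class I genes rose and 7 fell (median 0.02), and 10 of 19 class II genes rose and 5 fell (median 0.13), where 33.1% of all genes tested rose and 30.9% fell. From ISP to DP cells 14 of 18 class I and 15 of 19 class II genes fell, where 35.0% of all genes tested did, with medians of -0.74 and -0.52. From CD25 to ISP the counts of class I and the falls of class II are near the shares over all genes. The difference between these classes was not tested.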
